A study of Mus musculus with 26 samples.

Results

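The genes described here are 8 cytokine receptor subunits (Il6st, Il6ra, Il10ra, Il10rb, Il1r1, Tnfrsf1a, Tnfrsf1b and Ifngr1) and 2 feedback inhibitors of cytokine signalling (Socs1 and Socs3), measured in microglia sorted from mouse brain. The 10 genes were chosen by symbol. A probe stood for a gene where its transcript accession mapped to that symbol, and the brightest probe by mean over the 26 arrays was used. All 10 genes were on the array, and 9 of them were among the 24735 genes that were bright enough to be tested.

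The study used 26 one-colour arrays in 8 groups of 3 or 4 samples. All mice were C57BL/6 and carried 1 EGFP allele of CX3CR1 (CX3CR1EGFP/+), whose fluorescence in microglia was the sorting gate. Wild-type mice had no further change, and TLR-DKO mice also lacked a pair of Toll-like receptors, which the labels do not name and which the study is known to describe as Tlr2 and Tlr4. Mice went through repeated social defeat stress (R-SDS) or were only moved between cages (naive), and cells were taken 1.5 h after the last session from either of 2 forebrain regions, the nucleus accumbens (NAc) or the medial part of the prefrontal cortex (mPFC). The labels call stressed wild-type mice susceptible and stressed TLR-DKO mice resilient, so genotype and behavioural outcome cannot be told apart under stress. Each sample pooled cells of 3 to 6 mice to reach 500 pg of RNA, which was amplified before labelling. The labels describe 2 experiments with different mice but do not say which sample belongs to which, so p-values measure the spread between these pools.

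Cytokine receptors of this kind work as assemblies of a ligand-binding and a signalling chain. Il6st encodes gp130, the signalling chain shared by interleukin 6 and its relatives, and Il6ra the chain that binds interleukin 6; Il10ra and Il10rb form the interleukin 10 receptor, which restrains inflammatory gene expression in microglia and macrophages. These receptors and the interferon gamma receptor signal through Janus kinases (JAK) and STAT transcription factors. STAT factors induce the suppressor of cytokine signalling genes Socs1 and Socs3, whose proteins bind JAKs or the receptors and shut the signal down; the TNF receptors and the interleukin 1 receptor signal through other adaptors, mainly to NF-kappaB.

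Levels below are log2 of a probe's signal relative to its array's 75th percentile. Probes differ in efficiency, so the level of one gene is not compared with that of another. The arrays' 75th percentiles ran from 80.7 to 340.5 signal units, and 49.97% to 71.0% of their spots were well above background. Cx3cr1, the gene whose promoter drives the reporter, lay between 7.99 and 9.70 on all 26 arrays. Tlr2 was well above background on 12 of 12 wild-type arrays (0.62 to 2.68) and on 0 of 14 TLR-DKO arrays (-4.60 to -3.46). The rule by which repeat spots count as above background was chosen on Tlr2 itself, so the 0 of 14 is no independent check. The levels do not depend on that rule, and they did not overlap between genotypes. Replicate 3 of stressed wild-type mPFC stood apart from the other arrays, with a mean correlation of 0.79 with them, and replicate 1 of naive TLR-DKO mPFC was next at 0.83. Several results rest on one of these arrays, and the values without it stand beside them. In pooled cells, fewer cells that express a gene and less RNA per cell cannot be told apart.

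Il6st was the one gene of the 10 that differed between the brain regions beyond the test's threshold, and it was about 2.07-fold higher in NAc than in mPFC microglia (limma adjusted p 0.0419). Every slide held 1 region, and the call was lost with slide as a random block (adjusted p 0.521). It held in 8 of 26 fits that left out 1 array. No stress, genotype or interaction comparison called any of the 10 genes. Socs1 was also higher on average in NAc, but did not pass. The Socs3 stress difference was above 0 in 3 of 4 settings, of which one turned direction between slides, and none passed.

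Il6st and Socs1 had the widest differences between regions, and the 250 bases before their annotated starts are shown to place both genes (RefSeq, GRCm38.p6; Il6st chr13:112463820-112464069, plus strand; Socs1 chr16:10785537-10785786, minus strand; both 5′ to 3′). The table held promoters for 8 of the 10 genes.
Il6st: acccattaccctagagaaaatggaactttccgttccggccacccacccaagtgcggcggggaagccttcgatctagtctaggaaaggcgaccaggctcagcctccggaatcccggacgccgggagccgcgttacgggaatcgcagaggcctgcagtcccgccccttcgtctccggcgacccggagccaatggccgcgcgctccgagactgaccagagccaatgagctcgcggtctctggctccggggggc
Socs1: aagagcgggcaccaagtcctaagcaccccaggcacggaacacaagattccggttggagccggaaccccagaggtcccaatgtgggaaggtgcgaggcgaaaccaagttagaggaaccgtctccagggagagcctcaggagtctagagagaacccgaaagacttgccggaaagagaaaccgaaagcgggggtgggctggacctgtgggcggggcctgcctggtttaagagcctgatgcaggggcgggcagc

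**Figure D1:**
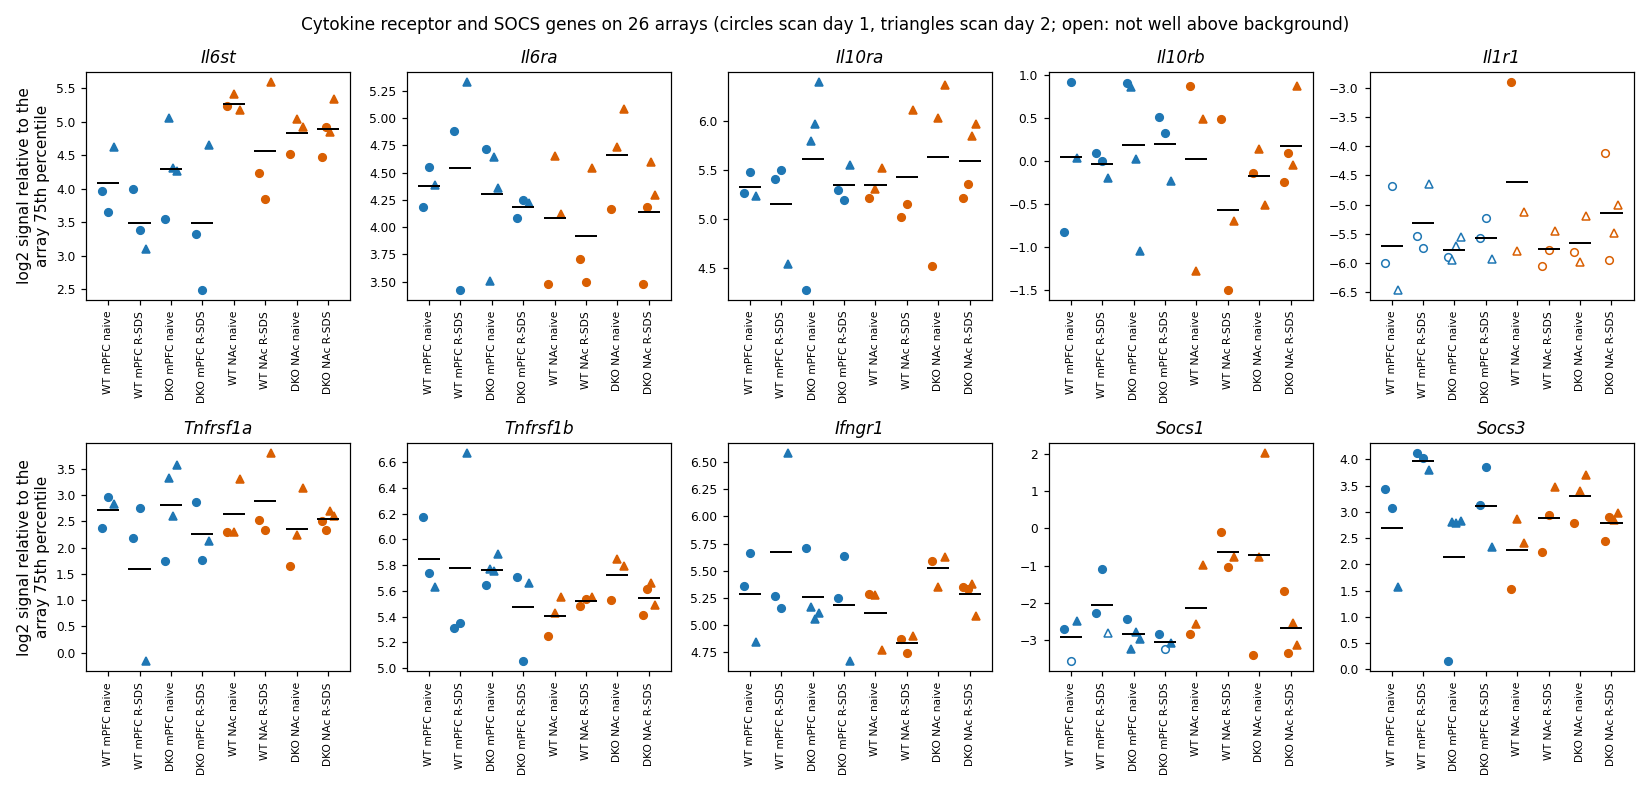
Log2 level of each of the 10 genes on the 26 arrays (y axis, relative to the array's 75th percentile) by group (x axis), with circles for scan day 1, triangles for scan day 2, open symbols where a probe was not well above background, blue for mPFC, orange for NAc and a bar at each group's mean. Il6st lies higher in the NAc groups, Il1r1 is well above background on 1 array, and replicate 3 of stressed wild-type mPFC is the lowest point for Tnfrsf1a and the highest for Ifngr1 and Tnfrsf1b.

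Il6st in mPFC was 3.96, 3.66 and 4.62 in naive wild-type samples and 4.00, 3.38 and 3.10 in stressed ones. In TLR-DKO mPFC it was 3.55, 5.06, 4.31 and 4.26 in naive and 3.32, 2.49 and 4.66 in stressed samples. These values overlapped between conditions in both genotypes. In NAc, Il6st was 5.24, 5.41 and 5.17 in naive and 4.24, 3.85 and 5.59 in stressed wild-type samples. In TLR-DKO NAc it was 4.52, 5.04 and 4.92 in naive and 4.47, 4.93, 4.85 and 5.34 in stressed samples. Of the 13 NAc arrays, 12 lay above the mPFC median and 5 lay above the highest mPFC array, so the regions overlapped but were shifted.

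The mean Il6st level was 3.87 ± 0.72 (SD, n = 13) in mPFC and 4.89 ± 0.50 (SD, n = 13) in NAc. Averaged over the 4 combinations of genotype and condition, Il6st was higher in NAc by 1.05 ± 0.24 (SE, log2), with a limma adjusted p of 0.0419. It was 1 of the 9 tested genes called in this comparison, in which 0.898% of all 24735 genes were called and 0.0849% were called higher in NAc (21 of 222 calls). The count of 222 ran from 65, without wild-type NAc naive replicate 3, to 371, without wild-type mPFC R-SDS replicate 2, when 1 array was left out. The difference was 1.19 in naive and 1.07 in stressed wild-type mice, and 0.53 in naive and 1.41 in stressed TLR-DKO mice, each in the same direction. Without naive TLR-DKO mPFC replicate 1 the third of these was 0.28. None of these 4 passed alone (limma adjusted p 0.951, 0.582, 0.812 and 1). In naive wild-type mice the regions did not overlap for Il6st and for Tnfrsf1b, 2 of the 9 tested genes, against 11.6% of all genes.

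The Il6st call sat close to the threshold. Within scan day 1 the difference was 1.14 and within scan day 2 it was 1.01 (limma adjusted p 0.169 and 0.17), and with scan day as a block it was 0.98 (adjusted p 0.0178). With slide as a random block the difference was 1.02, and 0 of all genes were then called, with 1420 at an unadjusted p under 0.05. When 1 array was left out the difference ran from 0.92 to 1.20 and the adjusted p from 0.0225 to 0.0814. The 8 fits that kept the call left out wild-type mPFC naive replicate 3 or R-SDS replicate 1 or 2, TLR-DKO mPFC naive replicate 2 or R-SDS replicate 3, wild-type NAc R-SDS replicate 2, or TLR-DKO NAc naive replicate 1 or R-SDS replicate 1. Without both arrays that stood apart, the difference was 0.94 (adjusted p 0.112).

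Markers of perivascular macrophages, which also express Cx3cr1 and can enter an EGFP gate, had lower summed levels in NAc. The summed level of 7 such markers (Mrc1, Cd163, Lyve1, Pf4, F13a1, Cbr2 and Ms4a7), relative to the 75th percentile on a linear scale, ranged from 6.22 to 58.8 in mPFC (median 15.2) and from 0.164 to 8.66 in NAc (median 2.95). The mean region difference was below 0 for all 7, while 44.7% of all genes were above 0. With limma 1 of the 7 passed, against 0.813% of all genes called lower in NAc. Cd163 and Lyve1 were well above background on only 7 and 12 of 26 arrays. Other lists moved too: 0 of 4 tested neuron markers were above 0, and 1 of 3 tested endothelial and mural markers passed. Of the oligodendrocyte lineage markers, 3 of 5 were above 0. Over the 26 arrays the Pearson correlation of Il6st with the log2 sum of the 7 perivascular macrophage markers was -0.52. It was -0.56 with that of neuron, -0.49 with that of astrocyte and -0.47 with that of monocyte and neutrophil markers. These values are descriptions of arrays that share region and slide. The part of these cells in the Il6st difference was not tested.

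**Figure D2:**
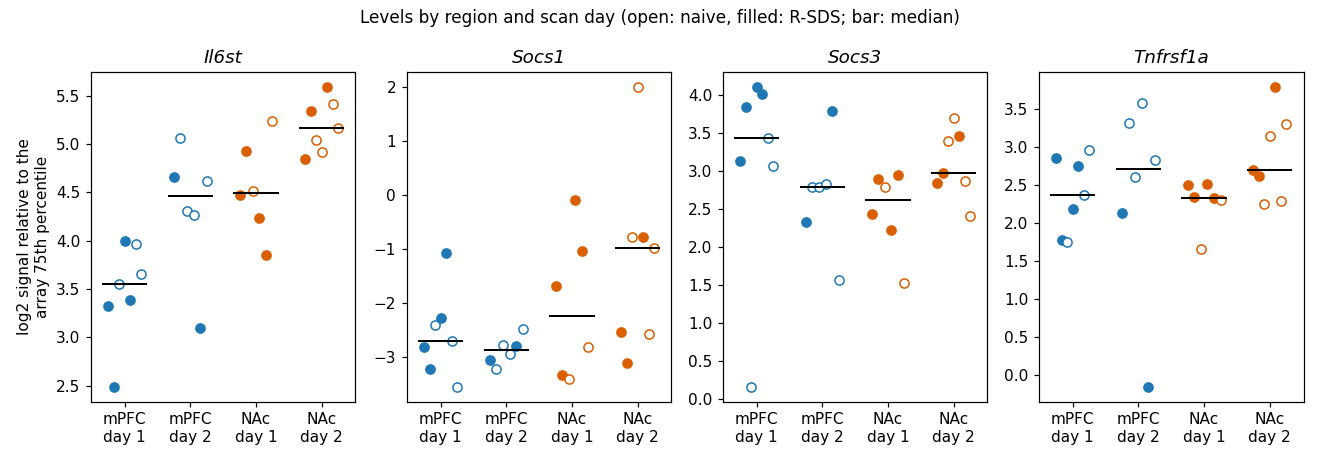
Log2 level (y axis, relative to the array's 75th percentile) of Il6st, Socs1, Socs3 and Tnfrsf1a by region and scan day (x axis), with open symbols for naive, filled for R-SDS samples, 1 point per array and a bar at each median. Il6st is higher in NAc on both scan days. The mean Socs1 region difference fitted within each day, which is not the gap between the drawn medians, is 0.24 on day 1 and 1.65 on day 2.

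Il6ra, the interleukin 6 binding chain, did not follow its partner. Its level ran from 3.43 to 5.33 over the 26 arrays, and both extremes were stressed wild-type mPFC samples (replicates 2 and 3). The mean region difference was -0.15 ± 0.22 (SE) and the mean stress difference -0.16 ± 0.22, with limma adjusted p of 0.786 and 0.979. Its level moved with the summed level of 8 microglia markers over the 26 arrays (Pearson r 0.73, a description), as did that of Ifngr1 (r 0.81). Tnfrsf1b had an r of 0.62. Without replicate 3 of stressed wild-type mPFC, whose microglia sum was the highest, these were 0.69 for Il6ra, 0.63 for Ifngr1 and 0.24 for Tnfrsf1b. Over all 26 arrays the r of Ifngr1 was 0.67 with neuron, 0.57 with astrocyte and 0.45 with oligodendrocyte lineage markers. In the same order it was 0.30, 0.09 and 0.40 for Il6ra and 0.16, 0.53 and 0.18 for Tnfrsf1b. Replicate 3 of stressed wild-type mPFC also had the highest sum of each of these lists.

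Il10ra and Il10rb, the chains of the interleukin 10 receptor, showed no call. Il10ra ranged from 4.28 to 6.39, and both ends were naive TLR-DKO mPFC samples (replicates 1 and 4). Il10rb ranged from -1.50 to 0.92. The mean differences of Il10ra were -0.10 for stress, 0.23 for genotype and 0.14 for region, each with a 95% interval that included 0. Those of Il10rb were -0.08, 0.23 and -0.24, and its intervals reached from -0.84 to 0.83 over these comparisons, so changes of that size are not excluded.

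Ifngr1, the ligand-binding chain of the interferon gamma receptor, and Tnfrsf1b, TNF receptor 2, varied least among the 9 tested genes, with pooled SDs within groups of 0.38 and 0.32. Tnfrsf1b lay between 5.06 and 6.67 and Ifngr1 between 4.67 and 6.58, and the highest value of both was replicate 3 of stressed wild-type mPFC. Ifngr1 in stressed wild-type mice was 5.27, 5.15 and 6.58 in mPFC and 4.87, 4.74 and 4.90 in NAc. These groups did not overlap, and the difference was -0.83 ± 0.35 (SE) with a limma adjusted p of 0.561. Without stressed mPFC replicate 3 the difference was -0.38. In that comparison 3 of the 9 genes (Ifngr1, Socs1 and Socs3) did not overlap between regions, against 12.9% of all genes. Within NAc, Ifngr1 was 5.29, 5.27 and 4.77 in naive wild-type and 5.59, 5.35 and 5.63 in naive TLR-DKO samples, and the stressed TLR-DKO samples were at 5.35, 5.33, 5.37 and 5.08. Every TLR-DKO sample lay above the wild-type samples of its condition. The genotype differences of 0.41 ± 0.35 and 0.45 ± 0.33 (SE) did not pass (limma adjusted p 1 and 0.997). In naive NAc, Ifngr1 and Il6st were the 2 of 9 genes whose genotypes did not overlap, against 7.38% of all genes.

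Tnfrsf1a encodes TNF receptor 1, the receptor with a death domain. In wild-type mPFC it was 2.37, 2.96 and 2.82 in naive and 2.18, 2.76 and -0.16 in stressed samples. The stress difference of -1.12 ± 0.62 (SE; limma adjusted p 0.83) was -0.25 without stressed replicate 3. Its other groups ran from 1.65 to 3.79. A second probe for the gene correlated with the first at a Pearson r of 0.19 over 26 arrays, and their mean genotype differences were 0.03 for the probe used and 0.85 for the other, so the probes disagree.

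Il1r1, the signalling receptor of interleukin 1, was well above background on 1 of 26 arrays, replicate 1 of naive wild-type NAc at -2.90. On the other arrays it lay between -6.46 and -4.11. It was not tested, and no fold is given.

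Socs3 was higher after stress in wild-type mPFC, where naive samples were at 3.44, 3.07 and 1.56 and stressed samples at 4.11, 4.02 and 3.79. These groups did not overlap; this was 1 of the 9 tested genes, against 8.1% of all genes. The difference was 1.28 ± 0.62 (SE), 0.81 on slide 1 and 2.23 on slide 2, and it did not pass (limma adjusted p 0.83). It ranged from 0.72, without naive replicate 3, to 1.66, without naive replicate 1, when 1 array was left out, and was 1.38 without stressed replicate 3.

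In TLR-DKO mPFC, Socs3 was 0.16, 2.80, 2.79 and 2.83 in naive and 3.14, 3.85 and 2.33 in stressed samples. The stress difference of 0.96 was 0.30 without naive replicate 1, one of the arrays that stood apart, and it was 3.33 on slide 1 and -0.48 on slide 2, so its direction turned between slides. In NAc, wild-type samples were at 1.52, 2.87 and 2.42 when naive and 2.23, 2.95 and 3.47 after stress. TLR-DKO NAc samples were at 2.79, 3.40 and 3.70 when naive and 2.44, 2.89, 2.85 and 2.98 after stress, the one setting in which the difference was below 0 (-0.51 ± 0.58 SE). The difference between the genotypes' stress effects was -0.32 ± 0.85 in mPFC and -1.12 ± 0.85 in NAc (SE; limma adjusted p 0.956 and 1). The mPFC value was -0.99 without naive TLR-DKO replicate 1, 0.24 at the other end of the fits that left out 1 array, and 2.52 on slide 1 against -2.71 on slide 2. Averaged over the 4 settings, the stress difference was 0.59 ± 0.30 (SE; limma adjusted p 0.914).

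Socs1 was low in mPFC, at -2.71, -3.56 and -2.49 in naive and -2.27, -1.08 and -2.81 in stressed wild-type samples. In TLR-DKO mPFC it lay between -3.24 and -2.42. It was well above background on 23 of 26 arrays. The count was 2 of 3 in each of naive wild-type, stressed wild-type and stressed TLR-DKO mPFC, and complete in every other group. In NAc, naive wild-type samples were at -2.82, -2.58 and -0.98 and stressed ones at -0.10, -1.03 and -0.78. TLR-DKO NAc samples were at -3.41, -0.78 and 2.01 when naive and -1.69, -3.34, -2.54 and -3.12 after stress. The naive TLR-DKO NAc group thus spanned almost the whole range of the gene.

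The mean region difference of Socs1 was 1.18 ± 0.41 (SE), higher in NAc, and did not pass (limma adjusted p 0.186). This difference was set in part against mPFC values near background and is not exact. With 1 array left out it ran from 0.83 to 1.51 (limma adjusted p 0.0243 to 0.273). It passed in 1 of these 26 fits, the one without TLR-DKO NAc naive replicate 1, which gave the 1.51. In naive TLR-DKO mice alone the region difference ran from 0.76 to 3.46 with 1 array left out. Within scan day 1 the mean region difference was 0.24 and within day 2 it was 1.65. The stress difference was 1.49 ± 0.85 (SE) in wild-type and -1.95 ± 0.80 in TLR-DKO NAc, and their difference was -3.44 ± 1.17 (limma adjusted p 1). Without TLR-DKO NAc naive replicate 3 these last values were -0.58 and -2.07. Slide 3 alone gave a TLR-DKO stress difference of 0.90 and slide 4 alone -3.45. In stressed NAc, Socs1 was lower in TLR-DKO than in wild type by -2.03 ± 0.80 (SE) with no overlap, and the limma adjusted p was 0.997. Socs1 and Ifngr1 were the 2 of 9 genes that did not overlap there, against 7.2% of all genes.

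**Figure D3:**
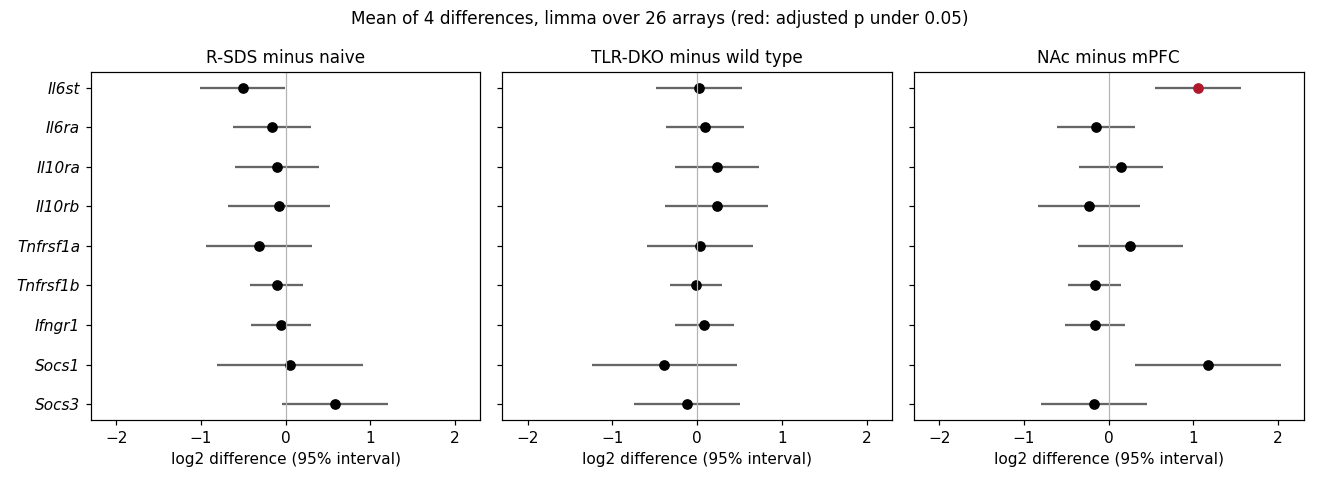
Mean log2 difference (x axis, points with 95% intervals) of the 9 tested genes for stress, genotype and region, each the mean of 4 differences, with red for a limma adjusted p under 0.05. Il6st in NAc minus mPFC, at 1.05, is the one red point, and the intervals of the other genes include 0 except those of Socs1 for region and Il6st for stress.

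Across the 4 stress comparisons limma called 0 of the 9 tested genes. In the same comparisons 0.00809% of all genes were called in wild-type mPFC, 0% in TLR-DKO mPFC, 0% in wild-type NAc and 0.00809% in TLR-DKO NAc. The mean stress difference called 0 of 9 genes and 0% of all genes. It was below 0 for 7 of the 9 and above 0 for 55.9% of all genes, with medians of -0.10 and 0.04. At an unadjusted p under 0.05 it held 1 of the 9, Il6st at -0.51 ± 0.24 (SE; limma adjusted p 0.912), and 5.46% of all genes.

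The genotype comparisons called 0 of the 9 genes in naive mPFC, stressed mPFC, naive NAc and stressed NAc, where limma called 0.0121%, 0.0121%, 0.0121% and 0.00809% of all genes. The mean genotype difference also called 0, against 0.0202% of all genes, and 0 of the 9 had an unadjusted p under 0.05, against 8.23% of all genes. Its 9 values lay between -0.39 for Socs1 and 0.23 for Il10ra. The region comparisons in naive and stressed wild-type and naive and stressed TLR-DKO mice called 0 of 9, against 0%, 0.00404%, 0% and 0.00404% of all genes. Both interactions called 0 of 9 genes and 0% of all genes; at an unadjusted p under 0.05 they held 0 of the 9 in mPFC and 1 in NAc (Socs1), against 6.09% and 2.52% of all genes.

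Over the 26 arrays some of the 10 genes varied together, as a description of arrays that share groups, slides and depth. The highest Pearson correlation was 0.71, between Il10ra and Tnfrsf1a, and 0.76 after group means were removed. The lowest was -0.66, between Tnfrsf1a and Ifngr1, and it was -0.36 without replicate 3 of stressed wild-type mPFC. Every value of Tnfrsf1a here, including its likeness to other genes, comes from the probe used. The second Tnfrsf1a probe correlated with that one at a Pearson r of only 0.19. Among about 7846 named genes well above background on all arrays, the gene most like Ifngr1 was Trem2, a microglial lipid receptor (r 0.93), followed by Serinc1 (0.87) and Rnaset2a (0.85). Il6st was most like Cebpa, a myeloid transcription factor (0.76), Il6ra most like Flna (0.80), Il10ra most like Eef1g (0.77) and Il10rb most like Smad1 (0.69). Tnfrsf1a was most like E2f3 (0.80), Tnfrsf1b most like Fuca1 (0.80), Socs1 most like Gpatch8 (0.68) and Socs3 most like Rsrp1 (0.74). Without replicate 3 of stressed wild-type mPFC the r of Tnfrsf1a with E2f3 was 0.54. The r of Ifngr1 with Trem2, Serinc1 and Rnaset2a was then 0.87, 0.80 and 0.75. Without replicate 1 of naive TLR-DKO mPFC the r of Socs3 with Rsrp1 was 0.53.

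The surrounding pathway was read from 8 lists with 103 genes, of which 83 were tested. In the mean stress comparison limma called 0 of the 83, with 10 at an unadjusted p under 0.05, against 0% and 5.46% of all genes. In each of the other 16 comparisons it also called 0, with 0 to 5 of the 83 at an unadjusted p under 0.05, against 2.52% to 15.4% of all genes. The ligand list was the one with the largest median stress difference. Of its 13 genes 8 were tested, and 7 of these were above 0, against 55.9% of all genes. Their median was 0.82, against 0.04 over all genes. The lists were chosen with earlier results of these data known. Il6, the ligand of Il6ra and Il6st, ranged from -5.44 to 0.62 (median -2.51) in 13 naive samples and from -1.93 to 1.77 (median 0.38) in 13 stressed samples. It was well above background on 9 naive and 13 stressed arrays, the groups overlapped, and the difference of 2.62 ± 0.66 (SE) did not pass (limma adjusted p 0.523). Il11, another ligand that signals through gp130, differed by 0.67 ± 0.29, was well above background on 19 of 26 arrays, and differed by 0.44 without replicate 3 of stressed wild-type mPFC.

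Among TNF receptor family genes, Tnfrsf12a, the TWEAK receptor, differed by 1.42 ± 0.36 (SE; limma adjusted p 0.516) and Tnfrsf13b by -0.51 ± 0.37. Among targets of STAT factors, Cebpb differed by 0.65 ± 0.18 and Pim1 by 1.84 ± 0.77 (adjusted p 0.541 and 0.887). For Pim1, 7 of 13 naive arrays and 12 of 13 stressed arrays were well above background, so its difference, like that of Il6, was set in part against values near background and is not exact. The phosphatases Ptpn6 and Ptpn1, which remove phosphate from JAKs and receptors, differed by -1.13 ± 0.36 and -1.01 ± 0.36 (adjusted p 0.765 and 0.833). In that inhibitor list 2 of 11 tested genes were above 0, against 55.9% of all genes, with a median of -0.30 against 0.04. Lifr and Il11ra1 among gp130 family receptors differed by 0.51 and -0.51, Jak1 and Stat5b by 0.39 and -0.50, and Il22ra1 by 0.28. Without 1 array, Jak1 was as low as 0.23 (naive TLR-DKO NAc replicate 1 left out). Il20rb and Il1rn were well above background on 9 and 19 of 26 arrays. Their differences of -0.55 and 0.46 were set in part against values near background and are not exact. With 1 array left out they ran from -0.77 to -0.23 and from 0.17 to 0.61. Sigirr had a difference near 0 (0.13, and -0.0035 without stressed TLR-DKO NAc replicate 3). None of these 16 named genes passed.

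**Figure D4:**
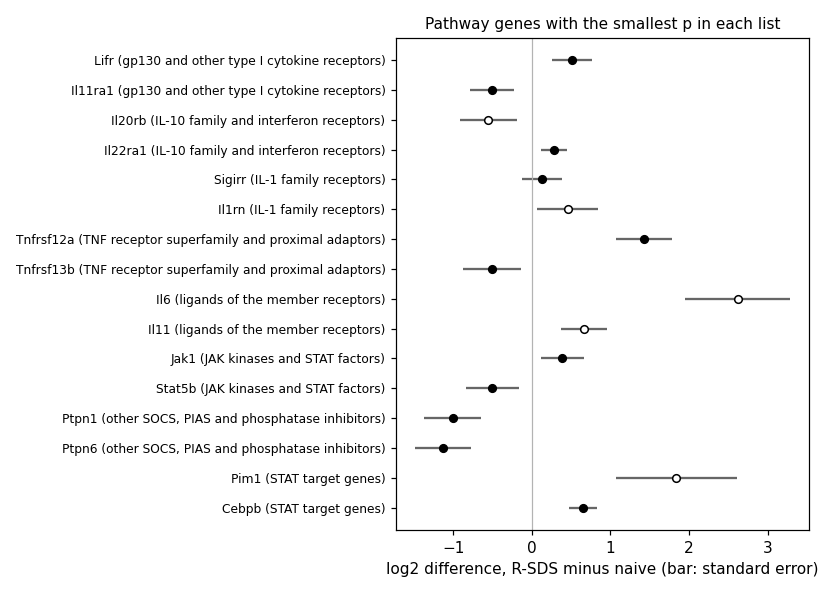
Mean log2 difference between stressed and naive samples (x axis, points with standard errors) for the genes with the smallest unadjusted p in each of the 8 pathway lists (y axis). Open points mark genes that were not well above background on all 26 arrays, whose differences are not exact. Il6 at 2.62 and Pim1 at 1.84, both open, lie farthest to the right and Ptpn6 at -1.13 farthest to the left, and no point passed with limma after adjustment over all genes.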

How the data were processed

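Intensity values came from 26 scanner files deposited by the authors, on a linear scale per the file headers. The submitters' processing notes name Agilent Feature Extraction, version 11.0.1.1; other upstream steps are not given in the sources used here. The deposited series table of log2 values equals the scanner's log2 signal minus about its 75th percentile (column medians -2.904 to -2.205), and served as an alternative. Control and outlier spots were left out, and spots of a probe were averaged. Values are log2(gProcessedSignal) minus the array's 75th percentile. A gene was tested where 3 or more arrays of any 1 group had its probe above background by the scanner's own call.

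How repeat spots count in that filter was settled after results had been seen, and 3 rules were tried. The first, any spot (24773 genes), was replaced because Tlr2 then counted as above background on knockout arrays; the rule used asks for more spots above than not (24735 genes). Counting ties as above gave 24738, was tried to match a gene count of an earlier analysis of these data, and was not kept. Their effect is given with the other alternatives.

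limma 3.58.1 (R 4.3.3) fitted 8 group means in 1 model, two-sided, with Benjamini-Hochberg adjustment over all genes and a threshold of 0.05, for 17 comparisons. The fit was tried on simulated arrays with independent noise and known shifts in the R-SDS samples. These held no slide, region or outlying-array effect, so that trial does not bear on the region call. The files hold no gMeanSignal column, so the normexp alternative used gMedianSignal. Of 29796 probes with RefSeq-style accessions, 28026 were named. Genes named are the 10, pathway genes that passed, and the 2 with the smallest p in each list. The 10 genes and all lists were chosen with earlier results of these data known. Alternatives were background correction, scaling, filters, probe averaging, slide, scan day, replicate blocks, array weights and leaving out arrays. A search of the promoters for sequence motifs is not reported here.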

Additional observations from a re-analysis of the deposited data

Results flagged for a closer look

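In groups of 4 samples, 20 sets of values were examined for a sample whose gap to its nearest neighbour exceeded 0.829 of the range, which chance passes in about 1 of 20. Ifngr1 in naive TLR-DKO mPFC replicate 1 was 5.71, against 5.06 to 5.16 in the other samples. Socs3 on the same array was 0.16, against 2.79 to 2.83. Ifngr1 in stressed TLR-DKO NAc replicate 4 was 5.08, against 5.33 to 5.37.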

How the results depend on the processing

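The count of genes called in the mean region comparison, 1 in the reported setting, became 0 with normexp, with median centring, with no filter on dim probes, with slide as a random block, within scan day 1 alone, within scan day 2 alone and with both arrays that stood apart left out. When 1 array was left out it ranged from 0 to 2. The Il6st adjusted p was 0.114 with normexp, 0.0551 with median centring and 0.0653 with no filter, and 0.0467 with quantile scaling, 0.0445 with the series table and 0.0281 with array weights. The 3 rules for repeat spots gave 0.0419, 0.0419 and 0.042, and the same count of 1. These rules, normexp on the median signal, the scan-day fits, and correlations and pathway differences with arrays left out were chosen after seeing the data. The cause of each lost call was not tested. Scaling moved the median of all genes by over 0.1 in some comparisons: the stress difference in wild-type mPFC had a median of 0.17 as reported and 0.02 after quantile scaling, and the genotype difference in stressed mPFC -0.24 and -0.07. The counts of 0 in the other 16 comparisons held in every alternative run. Of 4176 values of single genes under alternatives, 3771 kept their direction and side of the threshold, 379 that were not called changed sign, 25 were no longer past it, all Il6st by region, and 1 newly passed (Socs1).

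Replicate numbers were not taken to pair the samples: 13 of 36 same-numbered pairs had deviations correlated above 0.1 (-0.14 to 0.24). Between regions, where same-numbered pairs never shared a slide, the correlations ran from 0.001 to 0.238, both in naive wild-type mice. Whether the regions shared mice or pools was not tested. With the replicate block the Il6st region difference was 1.05 with a limma adjusted p of 0.0406, and genes called in that comparison rose from 222 to 281. No other call on the 10 genes changed with the block.

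Groups of 3 or 4 pools limit the precision, and the signal limits what can be said of Il1r1 and, on 3 of 26 arrays, Socs1.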
